A study of Mus musculus with 6 samples.

Results

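The assays described here read 7 microRNAs (miRNAs) that neurons make in an activity-dependent way or use at synapses: miR-132 and miR-212, miR-184, miR-26a and miR-26b, and miR-135a and miR-135b. They were picked by name from a rodent real-time PCR panel, with species prefix, strand mark and copy number ignored, which gave 9 of the 750 miRNA assays (6 in assay pool A and 3 in pool B). The tissue was whole prefrontal cortex of untreated male mice aged 5 months, 3 BTBR and 3 C57BL/6J, 1 sample per mouse. The labels give the BTBR mice the genotype BTBR T+ Itpr3tf/J, an inbred strain with autism-like behaviour, but enter C57BL/6J as the strain background of these samples too. C57BL/6J, listed as wild type, was the control strain. The study asked which miRNAs differ in level between the strains. Each assay was read as a cycle threshold, which is the PCR cycle where fluorescence passes a set level, so a higher threshold means less RNA and 1 cycle is taken as a 2-fold difference. A value of 40 was read as undetermined. Thresholds of different assays also depend on each assay's efficiency, so an order of assays is an order of thresholds, not of molecule numbers. An assay's prefix (hsa, mmu or rno) is the species it was designed for, and a # after its name stands for the minor strand of the hairpin.

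As background, a miRNA is cut from an RNA hairpin and represses messenger RNAs that pair with its seed, the bases just after its 5′ end. In neurons, synaptic activity and the growth factor BDNF act through the transcription factor CREB to switch on the locus that holds miR-132 and miR-212, and miR-132 promotes dendrite growth. In mouse brain miR-184 is expressed from the paternal allele and is induced by depolarisation. The miR-26 genes sit in genes of the Ctdsp phosphatase family. In serotonergic neurons miR-135a represses the serotonin transporter and the serotonin receptor Htr1a.

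The mature strands that the assays read, as mouse RefSeq sequences (GRCm38.p6), show which members share a seed, bases 2 to 8 in capitals. Of 8 strands looked up 7 were matched; miR-135b-5p is named only.
miR-132-3p: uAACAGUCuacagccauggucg
miR-212-3p: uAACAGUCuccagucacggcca
miR-184-3p: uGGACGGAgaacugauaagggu
miR-26a-5p: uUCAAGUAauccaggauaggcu
miR-26b-5p: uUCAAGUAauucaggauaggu
miR-26b-3p: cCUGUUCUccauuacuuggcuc
miR-135a-5p: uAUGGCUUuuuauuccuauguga
The seed AACAGUC occurred in miR-132-3p and miR-212-3p alone among 1679 mouse mature miRNAs of the table, and UCAAGUA in miR-26a-5p and miR-26b-5p alone. Counted from the 5′ end, miR-212-3p differs from miR-132-3p by A10C, C14U, U17C, U20C and G22A. Over the 21 positions they share, miR-26b-5p differs from miR-26a-5p by C11U and C21U, so these assays must tell apart strands with 19 identical bases. How far each assay reads its own strand was not tested.

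The hairpins of Mir212 (chr11:75173388-75173478) and Mir132 (chr11:75173682-75173747) lie 203 bases apart on the plus strand, and no other annotated gene spans them. Mir184 (chr9:89802260-89802328, minus strand) also lies outside other annotated genes. The mature miR-26a-5p comes from 2 places, Mir26a-1 within the span of Ctdspl (chr9:119031796-119031885) and Mir26a-2 within that of Ctdsp2 (chr10:126995530-126995613), so its assay reads their sum. Likewise miR-135a-5p comes from Mir135a-1, within the spans of Glyctk and a long non-coding RNA (chr9:106154124-106154213), and from Mir135a-2 (chr10:92072086-92072185, minus strand). Mir135b (chr1:132198088-132198184) lies within the spans of Lemd1 and a long non-coding RNA. Mir26b lies within the span of Ctdsp1 (chr1:74394310-74394394). Its hairpin is shown because both of its strands were measured, and the capitals mark miR-26b-5p and then miR-26b-3p.
Mir26b: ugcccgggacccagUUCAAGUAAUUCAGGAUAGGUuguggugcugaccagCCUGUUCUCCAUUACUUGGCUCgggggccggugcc

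Detection differed between the strains over the whole panel: 347 to 404 assays were detected in the BTBR mice and 289 to 305 in the C57BL/6J mice. Of the 16 spots of each of 5 endogenous controls, 15 or 16 were detected in BTBR mice and 10 to 15 in C57BL/6J mice. BTBR replicate 3 was unlike the other BTBR mice. Across the 237 assays detected in all 6 mice it correlated at 0.918 and 0.911 with the other BTBR mice and at 0.937, 0.964 and 0.957 with the C57BL/6J mice (Pearson r of raw thresholds across assays, which are not independent replicates). Results are therefore also given without it. Of the neuronal marker assays (8, for miR-124, miR-9, miR-128, miR-129 and miR-137), 6 were detected in all mice, while hsa-miR-9 was undetermined in BTBR replicate 3 and every C57BL/6J mouse, and hsa-miR-124# in every BTBR mouse. The summed level of that list, relative to each mouse's mean assay, was 471 to 584 in BTBR and 786 to 981 in C57BL/6J with undetermined assays counted as 0. Over the 6 assays detected in all mice it was 328 to 584 in BTBR and 574 to 980 in C57BL/6J, which overlap, and mmu-miR-124a was earlier in every BTBR mouse (19.79 to 23.29 cycles) than in any C57BL/6J mouse (24.44 to 31.40 cycles). The summed level of 3 blood assays was 31.4 to 127 in BTBR and 1.38 to 2.87 in C57BL/6J, again with undetermined assays as 0: hsa-miR-486 was undetermined in every C57BL/6J mouse and HSA-MIR-144 in all mice. The 1 blood assay detected in all mice, mmu-miR-451, stood at 2.39 to 5.20 in BTBR and 1.38 to 2.87 in C57BL/6J, with overlap. The part of these lists in the results below was not tested. The minor strand assay hsa-miR-9# crossed at 13.49 to 14.09 cycles over all 6 mice, including those where hsa-miR-9 was undetermined. Whether an undetermined value reflects the RNA level or a failed reaction was not tested. In whole tissue, fewer cells of a type and less RNA per cell cannot be told apart either.

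Of the 9 assays, 7 were detected in all 6 mice, and these 7 are also the members in the authors' normalized table of 306 assays. The assay hsa-miR-135a was detected in 2 BTBR mice, and rno-miR-135a#, for the other strand of a miR-135a hairpin, in none of the 6. Strain differences are log2 changes, BTBR minus C57BL/6J, on 2 scales: the authors' quantile-normalized thresholds, and raw thresholds centred on each mouse's mean over the 237 assays (the global mean). On the authors' values the whole panel was shifted, with a median change of -1.13 over the 231 assays tested. On the global mean scale the median of 270 assays was -0.40. Relative to these medians, the changes of the 7 members ran between -0.62 and 1.78 on the authors' values and between -0.65 and 1.21 on the global mean scale. The panel's shift itself depended on the scale. For the 189 assays with authors' values in all 6 mice, the median was -1.11 there and -0.45 with the global mean. Their raw thresholds, left uncentred, gave -0.05. Which step of the authors' processing made the shift was not tested. With 3 mice per strain and 1 PCR per assay, precision is limited, and intervals are 95% intervals of the limma fit.

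On the authors' values 1 of the 7 assays tested was lower in BTBR at a limma adjusted p under 0.05, hsa-miR-184, and 0 were higher. Over all 231 assays tested, 35.5% were lower and 1.30% were higher by the same rule. Among members, 1 of 7 is below the panel's share of falls, but the difference rests on few assays and was not tested. The median change of the 7 was -0.55, against -1.13 for all assays. On the global mean scale 0 of 7 passed in limma, 0 had an unadjusted p under 0.05, and their median change was -0.45, against -0.40 for all assays. There 0 of the 270 assays passed either way (percent called 0), and 71 had an unadjusted p under 0.05. Without BTBR replicate 3, 0 members passed on either scale, although 41.5% of assays were lower and 6.13% higher on the authors' values, and 13.2% were lower and 8.91% higher on the global mean scale.

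**Figure D1:**
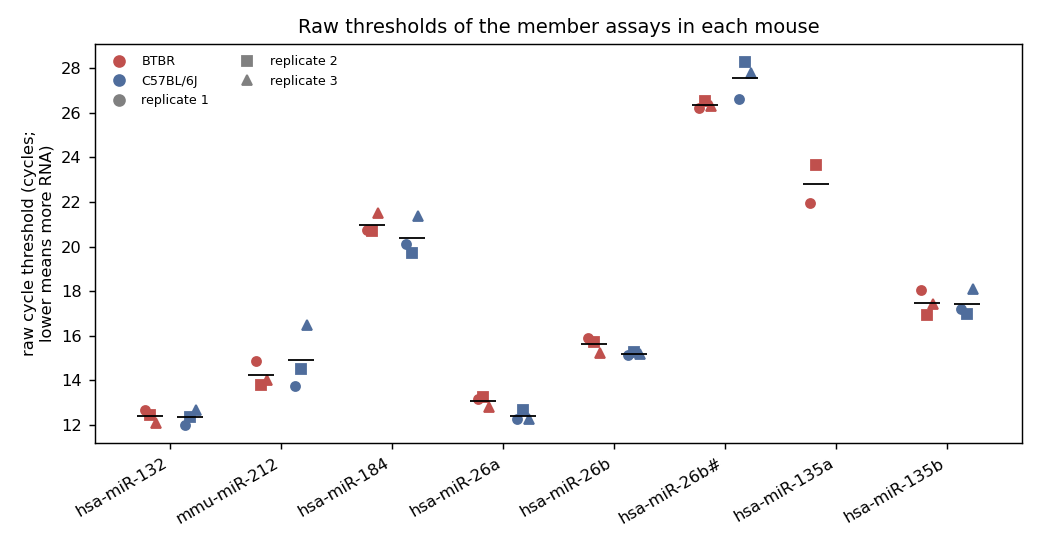
Raw cycle thresholds (vertical axis, cycles; lower means more RNA) of the 8 member assays detected in at least 1 mouse, with BTBR left of C57BL/6J for each assay. Points are mice and bars are means of detected values; hsa-miR-135a was undetermined in BTBR replicate 3 and in all C57BL/6J mice. The BTBR points of hsa-miR-26a lie above all C57BL/6J points, and those of hsa-miR-26b# lie below them.

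The activity-induced miR-132 was among the earliest assays of the panel in every mouse and its strain difference passed the threshold on neither scale. Its raw threshold was 12.68, 12.43 and 12.09 cycles in BTBR replicates 1, 2 and 3, against 12.00, 12.36 and 12.67 cycles in C57BL/6J replicates 1, 2 and 3. The groups overlapped almost completely. Among the 237 assays detected in all mice it ranked 3, 1 and 2 from the earliest in BTBR and 3, 3 and 5 in C57BL/6J, a measure that no scaling of samples changes. Raw values under 10 were treated as missing, so the 237 leave out hsa-miR-138, which read 9.60 cycles in C57BL/6J replicate 3. That assay was earlier than hsa-miR-132 in every mouse. Between strains the log2 change of hsa-miR-132 was 0.29 in the authors' table (standard error 0.29, interval -0.41 to 0.99, limma adjusted p = 0.446) and had the opposite sign, -0.45, on the global mean scale (0.50, -1.67 to 0.77, 0.575). Relative to the panel's median these were 1.42 above and 0.05 below, so the place of miR-132 in the panel depended on the normalization. With the authors' values centred on each mouse's median the change was 1.47 (interval 0.61 to 2.32, unadjusted p = 0.00606, limma adjusted p = 0.0949). Leaving out BTBR replicate 3 gave 0.22 and -0.74, and leaving out C57BL/6J replicate 1 gave 0.30 and -0.09.

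The partner from the same locus, miR-212, had later thresholds and a wider spread. The raw threshold of mmu-miR-212 was 14.88, 13.78 and 14.00 cycles in BTBR, against 13.73, 14.52 and 16.49 cycles in C57BL/6J. The latest value, that of C57BL/6J replicate 3, set most of the spread. The mouse with the earliest value was also a C57BL/6J one, so the groups overlapped. Its ranks were 15, 6 and 9 in BTBR and 8, 13 and 29 in C57BL/6J. In the authors' table its log2 change was 0.65 (standard error 0.79, interval -1.28 to 2.59, limma adjusted p = 0.527), and with the global mean 0.30 (0.92, -1.95 to 2.55, 0.824). Relative to the panel's median it was 1.78 and 0.70. Without C57BL/6J replicate 3 the change turned negative on both scales, to -0.08 and -0.67. Leaving out BTBR replicate 3 gave 0.63 and 0.05. A change of 1 cycle in either direction lies inside both intervals.

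The 3 assays whose global mean level followed hsa-miR-132 most closely over the 6 mice, out of 236, were hsa-miR-532 (Pearson r = 0.991), hsa-miR-152 (0.982) and hsa-let-7g (0.981). For mmu-miR-212 they were hsa-miR-330-5p (0.960), hsa-miR-185 (0.950) and hsa-miR-130a (0.945). The correlation of the 2 members with each other was 0.720. These values describe 6 points that share a per-mouse centring and fall in both strains.

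**Figure D2:**
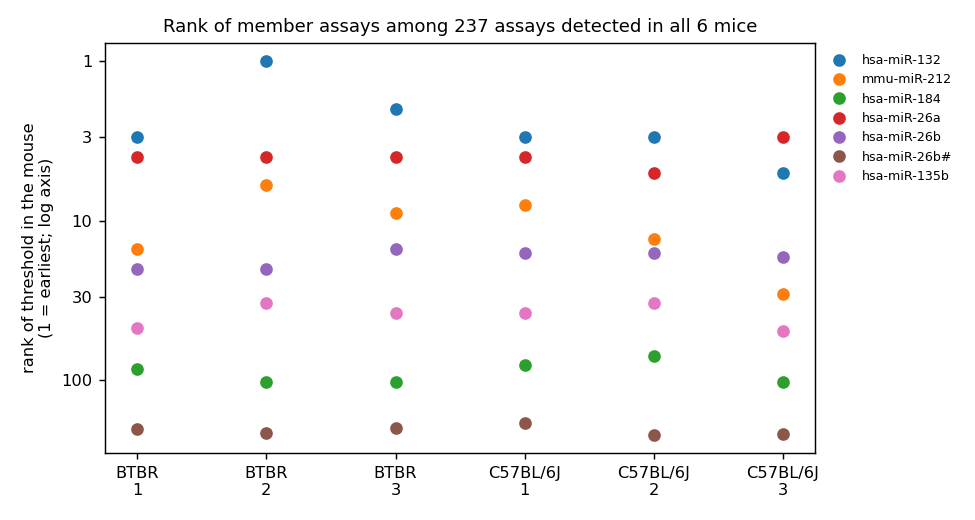
Rank of the 7 member assays detected in all mice (vertical axis, 1 is the earliest threshold; log axis) among 237 assays, in each BTBR and C57BL/6J mouse. hsa-miR-132 and hsa-miR-26a hold ranks 1 to 5 in every mouse, while mmu-miR-212 ranges from 6 to 29.

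The assay for miR-184, whose gene responds to depolarisation, gave the call. Raw thresholds of hsa-miR-184 were 20.74, 20.68 and 21.50 cycles in BTBR, against 20.10, 19.73 and 21.35 cycles in C57BL/6J. In both strains replicate 3 had the latest value, and the groups overlapped: C57BL/6J replicate 3 was later than BTBR replicates 1 and 2. In the authors' normalized table the same mice stood at 21.03, 22.06 and 21.86 cycles in BTBR, against 19.95, 19.10 and 20.68 cycles in C57BL/6J, with no overlap. Such separation towards lower levels in BTBR was common in that table, where 57.7% of the 189 assays with values in all 6 mice showed it and 1.59% were separated the other way. Among members with all 6 values, hsa-miR-184 and hsa-miR-26b were separated there, both lower in BTBR. The fitted log2 change was -1.74 in the authors' table, 3.35-fold less in BTBR (standard error 0.52, interval -3.02 to -0.47, limma adjusted p = 0.0458, lower in 3 of 3 BTBR mice than in any C57BL/6J mouse). On the global mean scale it was -0.97 (0.62, -2.50 to 0.55, 0.337). Set against the panel's median, these were -0.62 and -0.57.

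The call for miR-184 did not survive the loss of any 1 mouse. Its limma adjusted p ranged from 0.0685 to 0.123 over these 6 fits on the authors' values, with changes of -2.13 to -1.34. Its unadjusted p in limma ran from 0.00725 (without C57BL/6J replicate 3) to 0.0504 (without C57BL/6J replicate 2), against 0.0157 with all mice. The panel lost calls too. Its falls numbered 0, 8 and 88 without BTBR replicates 1, 2 and 3, against 82 with all mice. Without C57BL/6J replicates 1, 2 and 3 they numbered 64, 2 and 0. Without BTBR replicate 3 the change of miR-184 stood at -1.64 in the authors' table (limma adjusted p = 0.073) and at -0.85 with the global mean (0.409). Without C57BL/6J replicate 3 it was -2.13 (0.0685) and -1.63 (0.151). With all mice, 231 assays in order of p had hsa-miR-184 at place 79, and in order of change at place 64 from the most negative. In the authors' deposited table the ratio of BTBR to C57BL/6J for miR-184 is 0.299, with a p-value of 0.0408 and an adjusted p-value of 0.125. By rank, hsa-miR-184 stood at 85, 102.5 and 102 in BTBR and at 80, 71 and 102 in C57BL/6J. The assays with the most similar levels were mmu-miR-669a (Pearson r = 0.862, 6 mice), mmu-miR-345 (0.826) and mmu-miR-770-3p (0.810).

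**Figure D3:**
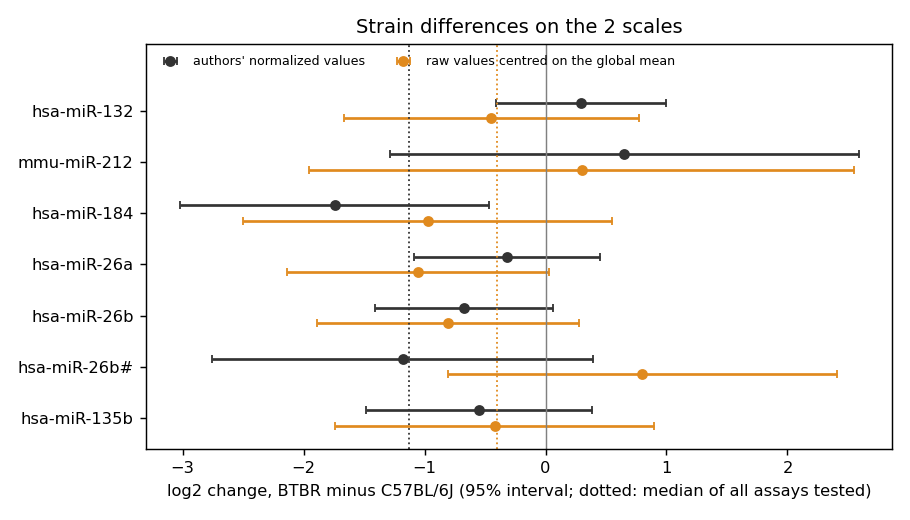
Log2 change between strains, BTBR minus C57BL/6J (horizontal axis), of the 7 member assays on the authors' normalized values (black) and on raw values centred on the global mean (orange), with 95% intervals from limma; dotted lines are the medians of all assays tested on each scale. The interval of hsa-miR-184 on the authors' values excludes 0, and hsa-miR-26b# and hsa-miR-132 lie on opposite sides of 0 on the 2 scales.

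The miR-26 family, set in the Ctdsp genes, tended to later raw thresholds in BTBR for its abundant strands. The assay hsa-miR-26a crossed at 13.15, 13.26 and 12.78 cycles in BTBR, against 12.26, 12.68 and 12.28 cycles in C57BL/6J. Every BTBR mouse was later than every C57BL/6J mouse, by at least 0.107 cycles. Of all 237 assays, 18.1% were separated in that direction, and of the 7 members 1. On the global mean scale hsa-miR-26a was the 1 member separated, also lower in BTBR, where 23.2% of assays were separated as lower and 11.8% as higher. The order of assays hardly moved: hsa-miR-26a ranked 4 in each BTBR mouse and 4, 5 and 3 in C57BL/6J. In the authors' normalized table the separation was gone, with 13.10, 12.78 and 12.78 cycles in BTBR, against 12.78, 12.78 and 12.15 cycles in C57BL/6J, so 4 mice share the same value. Its log2 change in the authors' table was -0.32 (standard error 0.31, interval -1.09 to 0.45, limma adjusted p = 0.446), and with the global mean -1.05 (0.44, -2.14 to 0.03, 0.192). Relative to the panel's median it was 0.81 and -0.65, so its side of the median depended on the scale. Without BTBR replicate 3 the changes were -0.37 (limma adjusted p = 0.428) and -1.33 (0.078), and without C57BL/6J replicate 3 -0.11 (0.812) and -1.17 (0.222).

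The paralogue miR-26b, with the same seed, had later thresholds than miR-26a in every mouse. Raw thresholds of hsa-miR-26b were 15.88, 15.74 and 15.21 cycles in BTBR, against 15.14, 15.26 and 15.18 cycles in C57BL/6J. BTBR replicate 3 fell among the C57BL/6J mice, which lay within 0.117 cycles of each other, while BTBR replicates 1 and 2 were later than all of them. In the normalized table the groups did not overlap, with 15.70, 15.97 and 15.29 cycles in BTBR, against 15.04, 14.86 and 15.04 cycles in C57BL/6J. Of the 189 assays with all 6 values there, 57.7% were separated in that direction. For hsa-miR-26b the log2 change in the authors' table was -0.68 (standard error 0.30, interval -1.41 to 0.06, limma adjusted p = 0.12), and with the global mean -0.81 (0.44, -1.89 to 0.28, 0.283). Relative to the panel's median it was 0.45 and -0.40. Without BTBR replicate 3 the values were -0.86 (limma adjusted p = 0.0646) and -1.14 (0.0817), neither past the threshold.

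Over the 6 mice the global mean levels of hsa-miR-26a and hsa-miR-26b correlated at 0.967, the highest value among the 21 pairs of member assays. Closest to hsa-miR-26a were hsa-miR-129 (Pearson r = 0.988), hsa-miR-411 (0.986) and hsa-miR-128a (0.985). Closest to hsa-miR-26b were mmu-miR-151 (0.993), hsa-miR-150 (0.989) and hsa-miR-129 (0.986). The neuron-enriched miR-128a and miR-129 are in the marker list too, and their global mean changes were -1.18 for hsa-miR-128a and -0.55 for hsa-miR-129, while those of mmu-miR-124a and mmu-miR-137 in the same list were 5.21 and 0.53 (0 of these 4 passed in limma on that scale).

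The other strand of the miR-26b hairpin was earlier in BTBR in the raw values. Thresholds of hsa-miR-26b# were 26.24, 26.55 and 26.31 cycles in BTBR, against 26.61, 28.28 and 27.80 cycles in C57BL/6J. Every BTBR mouse was earlier than every C57BL/6J mouse, though C57BL/6J replicate 1 by only 0.055 cycles. Of all 237 assays, 14.3% were separated in that direction. In the authors' normalized table the order was turned round: 27.56 cycles in BTBR replicates 1 and 3 and 40 in BTBR replicate 2, against 25.47, 27.28 and 26.39 cycles in C57BL/6J. The reading of 26.55 cycles in BTBR replicate 2 thus became undetermined, while the later raw readings of the C57BL/6J mice were kept. Its log2 change was -1.18 in the authors' table (standard error 0.61, interval -2.76 to 0.40, limma adjusted p = 0.18, with 2 BTBR values), and with the global mean 0.80 (0.66, -0.81 to 2.41, 0.427). Relative to the panel's median these were -0.06 and 1.21. Leaving out 1 mouse gave -1.63 to -0.73 in the authors' table, the ends being without C57BL/6J replicate 2 and replicate 1, where BTBR replicates 1 and 3 could not be left out for want of a second BTBR value. With the global mean the range was 0.43 to 1.46, with the same 2 mice at the ends, and 0.64 without BTBR replicate 3. With the late reading kept the change in the authors' table was -3.10. In the authors' deposited table, whose means keep 40 as a value, the ratio for miR-26b# is 0.0249, with an adjusted p-value of 0.447.

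**Figure D4:**
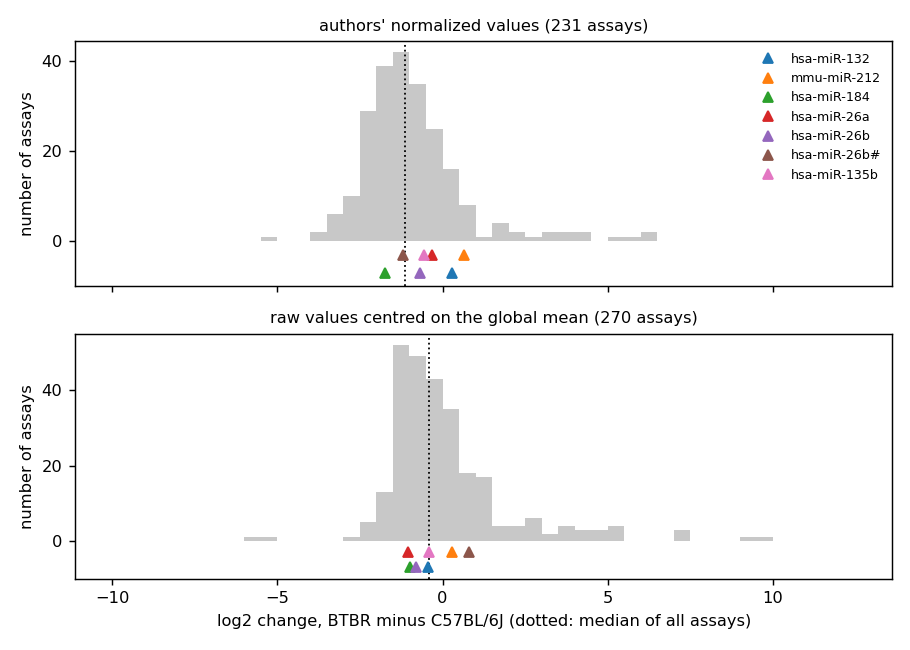
Number of assays (vertical axis) by log2 change, BTBR minus C57BL/6J (horizontal axis), on the authors' normalized values (upper, 231 assays) and on raw values centred on the global mean (lower, 270 assays); dotted lines are medians and triangles under the bars are the 7 member assays. On the authors' values hsa-miR-184 and hsa-miR-26b# lie below the median of -1.13 and the other members above it.

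Members were also compared within each mouse, as the difference of their raw thresholds, which no scaling of whole samples changes. Of the 5 pairs considered, 3 could be tested (exact permutation test, two-sided, where 3 mice against 3 cannot go below p = 0.1), and p-values were adjusted over those 3. For the strands of miR-26b, hsa-miR-26b minus hsa-miR-26b# was -10.36, -10.81 and -11.11 cycles in BTBR, against -11.46, -13.02 and -12.62 cycles in C57BL/6J. The strand gap was smaller in every BTBR mouse. How large a share of other assay pairs separates in this way was not computed. The mean strand gap was -10.76 ± 0.38 cycles in BTBR and -12.37 ± 0.81 in C57BL/6J (SD, n = 3 each, exact permutation p = 0.1, adjusted p = 0.3). The difference was 1.61 cycles with a standard error of 0.51. The 2 assays lie in different pools, whose reactions are separate. The mean threshold of pool A minus that of pool B was -2.69, -2.34 and -2.85 cycles in BTBR and -2.41, -2.38 and -2.41 in C57BL/6J. With each pool centred on its own mean, a setting chosen after seeing the data, the strand gap differed by 1.83 cycles. On the authors' values the difference had the opposite sign, -0.66 cycles.

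For the shared-locus pair, hsa-miR-132 minus mmu-miR-212 was -2.20, -1.35 and -1.91 cycles in BTBR, against -1.73, -2.15 and -3.82 cycles in C57BL/6J. Only C57BL/6J replicate 3 lay outside the range of the BTBR mice on the far side, and the groups overlapped. The mean was -1.82 ± 0.43 cycles in BTBR and -2.57 ± 1.11 in C57BL/6J (SD, n = 3 each), a difference of 0.75 with a standard error of 0.68 (exact permutation p = 0.5, adjusted p = 0.5). Without C57BL/6J replicate 3 the difference was 0.12. These assays also lie in different pools, and with each pool centred the difference was 0.97. For the shared-seed pair, hsa-miR-26a minus hsa-miR-26b was -2.72, -2.48 and -2.42 cycles in BTBR, against -2.89, -2.59 and -2.90 cycles in C57BL/6J. Both assays are in pool A. The mean was -2.54 ± 0.16 cycles in BTBR and -2.79 ± 0.18 in C57BL/6J (SD, n = 3 each), a difference of 0.25 with a standard error of 0.14 (exact permutation p = 0.2, adjusted p = 0.3). The pairs of hsa-miR-135a with hsa-miR-135b and with rno-miR-135a# had too few mice with both assays detected.

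**Figure D5:**
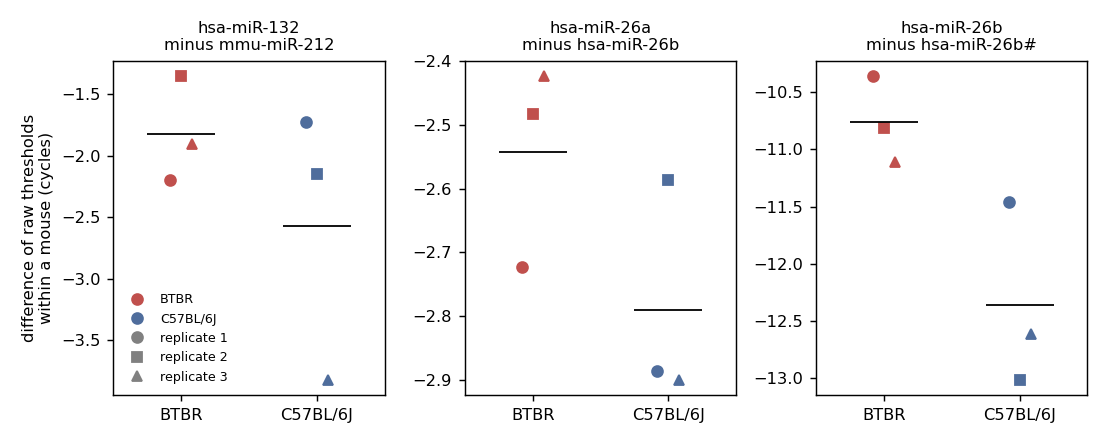
Difference of raw thresholds within a mouse (vertical axis, cycles, with a separate scale in each panel that does not start at 0) for 3 pairs of member assays, BTBR left of C57BL/6J. Points are mice and bars are means. The groups are apart for hsa-miR-26b minus hsa-miR-26b# and overlap in the other pairs. The share of panel pairs that lie apart was not computed.

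Of the miR-135 pair, hsa-miR-135b was detected in all mice, and its strain difference passed the threshold on neither scale. Its raw threshold was 18.04, 16.91 and 17.40 cycles in BTBR, against 17.19, 16.99 and 18.09 cycles in C57BL/6J. The groups overlapped over nearly their whole range. Ranks were 47, 33 and 38 in BTBR and 38, 33 and 49 in C57BL/6J. Its log2 change was -0.55 in the authors' table (standard error 0.38, interval -1.48 to 0.38, limma adjusted p = 0.277), and with the global mean -0.42 (0.54, -1.74 to 0.90, 0.605). Relative to the panel's median these were 0.58 and -0.02. Leaving out BTBR replicate 3 gave -0.54 and -0.58. Over all mice left out in turn the range was -0.76 (without BTBR replicate 2) to -0.31 (without C57BL/6J replicate 2) in the authors' table. With the global mean it was -0.93 (without C57BL/6J replicate 3) to -0.12 (without C57BL/6J replicate 1). The assays with the most similar levels were mmu-miR-376c (Pearson r = 0.956, 6 mice), mmu-miR-125b# (0.924) and hsa-miR-192 (0.899).

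By contrast, hsa-miR-135a crossed at 21.95 cycles in BTBR replicate 1 and 23.68 in BTBR replicate 2, and was undetermined in BTBR replicate 3 and in all 3 C57BL/6J mice. No level follows from an undetermined value, and no test was possible. The same pattern, BTBR replicates 1 and 2 alone, was shown by 34 of the 750 assays. In all, 54 assays were detected in 2 BTBR and no C57BL/6J mice and 28 in all BTBR and no C57BL/6J mice, against 8 detected in 2 C57BL/6J and no BTBR mice and 3 in all C57BL/6J and no BTBR mice. The assay is in neither the authors' normalized table nor the fits.

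Other miRNAs linked to neuronal activity or plasticity were taken as a list of 14, with 26 assays. On the authors' values 15 were tested, 3 fell and 0 rose in limma, with a median change of -0.14 against -1.13 for all assays. By the same rule 35.5% of all assays fell, so 3 of 15 is below the panel's share, a difference that was not tested. The 3 were hsa-miR-146a (-0.99, standard error 0.28, limma adjusted p = 0.0396), a brake on immune signalling, hsa-miR-129 (-1.67, 0.39, 0.0301), which acts on ion channels, and rno-miR-125b# (-2.04, 0.46, 0.0301). On the global mean scale 19 were tested, 0 passed and 6 had an unadjusted p under 0.05 (71 of 270 over all assays), with a median of -0.52 against -0.40 for all assays. The largest values there were 7.23 for hsa-miR-181a (standard error 1.27, limma adjusted p = 0.132) and 5.21 for the neuronal mmu-miR-124a (1.86, 0.15). Next came 2.61 for hsa-miR-29a# (0.63, 0.135, detected in only 2 mice per strain) and -1.32 for hsa-miR-146a (0.41, 0.142). The member assays, with global mean changes between -1.05 and 0.80, lay inside that range.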

How the data were processed

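Total RNA (100 ng, integrity number 9) was reverse transcribed, pre-amplified and run on the TaqMan OpenArray rodent panel, per the labels' protocols. The raw table holds cycle thresholds deposited without normalization; the instrument's settings were not given in the sources used here. The authors' second table holds quantile-normalized thresholds, per the file headers. In a rebuild from the deposited raw values, those under 10 were set to 40. Then 340 assays entered the quantile step with 40 as a value. The rebuild matched the 1585 values that the authors kept below 40, with a largest difference of 3.33e-09 cycles. Some late values stand at 40 among the authors' 306 assays, and the rule that set them was not tested. The authors' deposited fold table gives a fold ratio, the difference of mean thresholds (on a log2 scale, positive where BTBR is lower), a test statistic (a score) headed t.test, and p-values. The form of that t test is not given.

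Here thresholds were multiplied by -1, values of 40 and raw values under 10 were treated as missing, and assays with at least 2 values per strain were fitted with limma 3.58.1 (R 4.3.3), strain as single term, with Benjamini-Hochberg adjustment over all assays at 0.05. The fit was tested on simulated data. The limma p-values set a strain difference against the spread between 3 mice per strain, with variances moderated over all assays tested. Exact permutation tests used SciPy 1.17.1. A threshold has no counting depth. Every member assay is named. The 3 most correlated assays are named for members of the abundant strand, and up to 4 of the plasticity list with the largest global mean change, besides those past the threshold, which were added after their values were seen. Members and lists were chosen with earlier results of these data known. Of the alternatives, late readings kept, pool centring of pairs and the refits on the global mean scale were chosen after seeing the data. The replicate numbers name mice of different strains and were not taken as pairs. Same-numbered mice correlated at 0.02, 0.41 and -0.10 in their deviations from strain means, and differently numbered mice at -0.51 to 0.33. Deviations from a strain mean constrain one another, so these values cannot settle whether the mice were paired.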

Additional observations from a re-analysis of the deposited data

Results flagged for a closer look

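The assay hsa-miR-135a, which the strain comparison could not use, gave a signal in 2 of 3 BTBR mice (21.95 and 23.68 cycles) and in 0 of 3 C57BL/6J mice. Of the 237 assays detected in all mice, hsa-miR-135b, of the same family, crossed at 16.91 to 18.04 cycles in BTBR and 16.99 to 18.09 in C57BL/6J. In all, 54 assays of the panel were detected in 2 BTBR and no C57BL/6J mice, against 8 in 2 C57BL/6J and no BTBR mice. Whether the difference in hsa-miR-135a is one of level was not tested.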

How the results depend on the processing

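The count of members lower in BTBR, 1 on the authors' values, stayed at 1 when 3 values per strain were required. It was 0 with the global mean (all detected cells, the authors' cells, or within each pool), values centred on sample medians, the U6 spots, the other control spots, 40 kept as a value, 1 value per strain, late readings kept, and without each mouse in turn. The panel's own count of falls was 0 in each of these global mean settings and with either set of control spots. With values centred on sample medians the panel's count was 1. It was 70 of 306 with 40 kept as a value, 73 of 270 with 1 value per strain and 84 of 270 with late readings kept. Without each mouse in turn it ran from 0 to 88. With the replicate number as a block the members' count was 0 too (miR-184 adjusted p = 0.0693), and the panel's count of falls was 48 against 82. No setting gave a member higher past the threshold. The cause of these losses was not tested.

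Directions depended on the scaling. For hsa-miR-132, 0.29 on the authors' values, the change was -0.45 with the global mean, -0.24 with the authors' cells, -0.53 within pools, -1.25 with U6 and -1.17 with the other controls. For hsa-miR-26b# it was 0.80, 1.26, 0.95, 0.0027 and 0.0794 in the same order, against -1.18. For mmu-miR-212 it was -0.50 with U6, -0.42 with the other controls and -0.0813 without C57BL/6J replicate 3 (leaving out each mouse gave -0.0813 to 1.17, and -0.67 to 1.08 on the global mean scale). With authors' values centred on sample medians, hsa-miR-132 was at 1.47, mmu-miR-212 at 1.83, hsa-miR-26a at 0.86, hsa-miR-26b at 0.50 and hsa-miR-135b at 0.62. The change of hsa-miR-184 was negative in every setting run. On the authors' values the within-mouse difference of hsa-miR-26a and hsa-miR-26b was -0.36 cycles, and that of hsa-miR-26b and hsa-miR-26b# -0.66. Precision is limited by 3 mice per strain and 1 PCR per assay.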
